A study of Homo sapiens with 9 samples.

Results

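The genes described here are 10 readouts and effectors of the YAP/TAZ pathway: the TEAD-dependent target genes CTGF, CYR61, ANKRD1, AMOTL2, F3, LATS2 and AXL, the coactivator gene YAP1, and the DNA-binding partner genes TEAD1 and TEAD4. They were taken by name from a table of 20876 genes, with 1 transcript per gene (the one with the highest total count). Messenger RNA was sequenced from polyadenylated RNA of SW480, a colorectal cancer cell line without full-length APC, and of lines derived from it. The APC group carried myc-tagged APC in the pEF vector and was grown in G418, the CONTROL group carried pEF alone and was grown in G418, and the SW480 group was the parental line without G418. Each group held 3 libraries, all from plates of 1 line harvested 72 h after plating, so a p-value measures the spread between plates and not between independently made lines. The APC plates received fewer cells than the others, in a ratio of 2 to 3.35. Since YAP and TAZ are known to respond to cell crowding, cell number, the choice of line and the APC construct cannot be told apart in these data. APC and CONTROL share the vector and G418, so their comparison leaves out what those bring.

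In the Hippo pathway a kinase cascade, MST kinases acting with SAV1 and then LATS kinases acting with MOB1, phosphorylates the coactivators YAP and TAZ (the products of YAP1 and WWTR1) and keeps them out of the nucleus. Unphosphorylated YAP and TAZ enter the nucleus and bind TEAD factors, which recognise the sequence GGAATG. YAP and TAZ have also been described as partners of the destruction complex that APC scaffolds, and their target genes are often used as markers of their activity. Activity itself depends on protein modification and location, neither of which was measured here.

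Total counts over genes ranged from 16454637 to 19355496 per library. Levels are given as CPM (counts scaled to a common library size by the TMM method), as means ± SD of 3 libraries. A log2 fold change is followed by ± its standard error (SE), and a gene passed where its adjusted p was under 0.05. Levels of different genes are compared only as RPKM (counts divided by library depth and transcript length), as deposited. APC transcript stood at 145 ± 5 CPM in APC, 47.9 ± 1.59 CPM in CONTROL and 49.3 ± 2.46 CPM in SW480. The keratin genes KRT8 and KRT18, markers of simple epithelium, averaged 2160 to 2971 CPM in the 3 groups, while KRT20 averaged 0.0193 to 0.143 CPM. Other epithelial markers differed strongly between the lines. CDH1, the E-cadherin gene, averaged 133 ± 4.49 CPM in APC, 8.73 ± 1.59 CPM in CONTROL and 7.24 ± 0.897 CPM in SW480. EPCAM, an epithelial adhesion gene, averaged 382 ± 15.9 CPM in APC, 42.4 ± 1.57 CPM in CONTROL and 49.4 ± 1.16 CPM in SW480. VIL1, the villin gene, averaged 4.62 ± 0.0578 CPM in APC, 0.414 ± 0.208 CPM in CONTROL and 0.304 ± 0.112 CPM in SW480, and CDX2, an intestinal transcription factor gene, 14.9 ± 0.65 CPM in APC, 24.7 ± 1.72 CPM in CONTROL and 27.1 ± 2.02 CPM in SW480. KRT19, another keratin gene, averaged 647 ± 41.6 CPM in APC, 373 ± 7.73 CPM in CONTROL and 786 ± 67.7 CPM in SW480. Of the 8 epithelial markers, 7 were tested. Against SW480, where 72.5% of all genes passed, 4 of these markers were higher and 3 lower in APC. Against CONTROL, where 70.2% of all genes passed, 4 were higher and 2 lower in APC. The part of these markers in the results on the 10 genes was not tested. Of 5 fibroblast markers, COL3A1 and DCN had no row in the count table, and LUM and PDGFRA averaged at most 0.0745 CPM in a group. The summed list stood at 11.7 to 13.1 CPM in APC, 9.83 to 12.4 CPM in CONTROL and 12.8 to 13.6 CPM in SW480, nearly all of it COL1A1.

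The coactivator genes moved in opposite directions in the APC line. YAP1 stood at 180, 194 and 195 CPM in the APC libraries, 319, 309 and 318 CPM in CONTROL and 314, 307 and 324 CPM in SW480. All 3 APC libraries lay below all others, and CONTROL and SW480 overlapped. YAP1 fell 1.66-fold against SW480 (−0.73 ± 0.04 on the log2 scale, edgeR adjusted p = 4.09e-18) and 1.66-fold against CONTROL (−0.73 ± 0.04, edgeR adjusted p = 4.12e-18). Between CONTROL and SW480 its log2 fold change was 0.00 ± 0.04, with a 95% interval of −0.07 to 0.08. WWTR1, which encodes TAZ and is not one of the 10 genes, stood at 155, 163 and 160 CPM in APC, 80.2, 71.5 and 80.5 CPM in CONTROL and 83.7, 82.6 and 82.8 CPM in SW480. The gene rose 1.92-fold against SW480 (0.94 ± 0.04, edgeR adjusted p = 1.58e-19) and 2.05-fold against CONTROL (1.04 ± 0.04, edgeR adjusted p = 1.22e-20).

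Per length, the balance between the coactivator transcripts shifted while their sum moved less. The ratio of WWTR1 to YAP1 in RPKM was 0.885 ± 0.0208 in APC, 0.258 ± 0.0128 in CONTROL and 0.278 ± 0.00732 in SW480 (SD, n = 3 libraries). YAP1 made up 53.1% ± 0.587 of the summed RPKM of both genes in APC, 79.5% ± 0.816 in CONTROL and 78.3% ± 0.449 in SW480. The sum of both was 58.0 ± 2.62 RPKM in APC, 64.9 ± 1.99 RPKM in CONTROL and 66.8 ± 1.00 RPKM in SW480. For the ratio and for the sum, APC libraries did not overlap those of either other group (two-sided exact permutation p = 0.1, the smallest that 3 against 3 libraries can give). With any of the 12 pairs of listed WWTR1 and YAP1 transcripts the mean ratio was 0.817 to 0.885 in APC, 0.241 to 0.262 in CONTROL and 0.257 to 0.278 in SW480. The listed transcripts of each gene hold nearly equal counts, so these pairs could hardly differ and are no independent check.

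**Figure D1:**
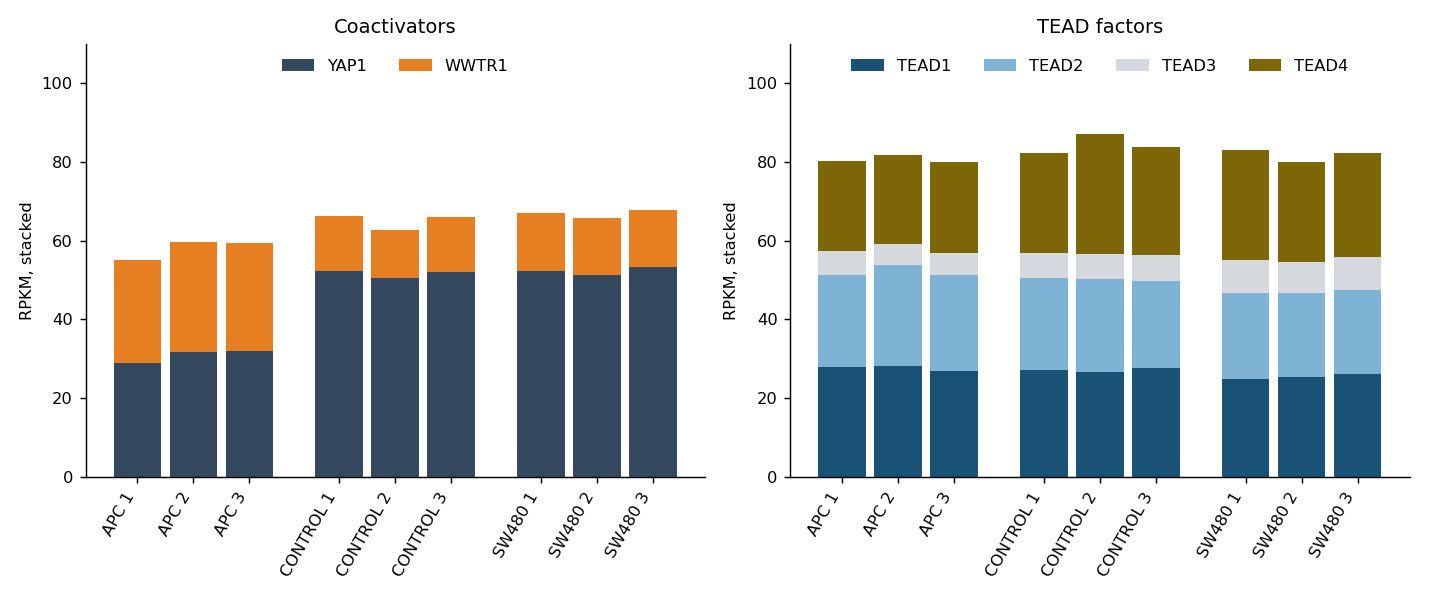
Stacked deposited RPKM of the coactivator genes YAP1 and WWTR1 (left) and of the 4 TEAD genes (right) in each library, grouped as APC, CONTROL and SW480. The WWTR1 part of each bar is larger in the 3 APC libraries, where YAP1 makes up 53.1% of the coactivator sum on average, and the TEAD bars are of similar height in all groups.

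TEAD1 and TEAD4 differed by at most 1.20-fold between lines. TEAD1 stood at 303, 302 and 286 CPM in APC, 289, 285 and 295 CPM in CONTROL and 260, 266 and 278 CPM in SW480. Both derived lines lay above SW480 and overlapped each other. APC exceeded SW480 1.11-fold (0.15 ± 0.04 on the log2 scale, edgeR adjusted p = 0.000743), and its difference from CONTROL did not pass (0.04 ± 0.04, edgeR adjusted p = 0.379, 95% interval −0.04 to 0.11). TEAD4 stood at 47.7, 46.6 and 46.9 CPM in APC, 51.5, 61.9 and 55.8 CPM in CONTROL and 55.8, 50.6 and 53.4 CPM in SW480, so that the APC libraries were the lowest. It fell 1.13-fold against SW480 (−0.18 ± 0.06, edgeR adjusted p = 0.00592) and 1.20-fold against CONTROL (−0.26 ± 0.06, edgeR adjusted p = 0.000161). Between CONTROL and SW480 TEAD4 passed only without CONTROL replicate 1 (0.14, edgeR adjusted p = 0.0492).

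TEAD2 and TEAD3, the remaining TEAD genes, moved in opposite directions against SW480. TEAD2 averaged 62.0 ± 2.19 CPM in APC, 58.0 ± 2.01 CPM in CONTROL and 53.3 ± 0.898 CPM in SW480. In APC it passed against SW480 only (0.22 ± 0.05, edgeR adjusted p = 0.000132, against 0.0689 in the comparison with CONTROL). Against CONTROL it did pass without APC replicate 1 (edgeR adjusted p = 0.0388) and without CONTROL replicate 2 (edgeR adjusted p = 0.0449). With summed transcripts TEAD2 passed too (edgeR adjusted p = 0.0361), but its 6 listed transcripts hold nearly equal counts. That sum appears to count most reads several times, so this call adds no support. TEAD2 in CONTROL was itself above SW480 (0.12 ± 0.05, edgeR adjusted p = 0.034), a call lost with DESeq2 (adjusted p = 0.0751) and in further alternatives. TEAD3 averaged 19.5 ± 1.23 CPM in APC, 22.2 ± 0.253 CPM in CONTROL and 27.6 ± 0.946 CPM in SW480. The gene fell against SW480 (−0.50 ± 0.07, edgeR adjusted p = 3.76e-08) and against CONTROL (−0.18 ± 0.07, edgeR adjusted p = 0.0179), the last call being lost with DESeq2 (adjusted p = 0.0624), without APC replicate 2 (edgeR adjusted p = 0.14) and without CONTROL replicate 3 (edgeR adjusted p = 0.064). TEAD3 was also lower in CONTROL than in SW480 (−0.32 ± 0.06, edgeR adjusted p = 0.000117). The 4 TEAD genes together came to 80.7 ± 1.03 RPKM in APC, 84.4 ± 2.43 RPKM in CONTROL and 81.7 ± 1.58 RPKM in SW480. The TEAD4 share of that sum lay between 27.8% and 28.8% in APC, between 30.8% and 34.8% in CONTROL and between 31.7% and 33.6% in SW480. The TEAD1 share lay between 33.5% and 34.7% in APC, between 30.5% and 33% in CONTROL and between 29.9% and 31.9% in SW480.

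Promoter windows are shown for the 4 of the 10 genes whose window held a match of either motif searched. The windows are the 250 bases before the RefSeq gene start (assembly GRCh38.p14), read 5′ to 3′ on the gene's strand, in lower case with GGAATG (the TEAD motif) and TGANTCA (the AP-1 motif, N being any base, added after the values were seen) in capitals. Both motifs were searched on both strands, and in the windows shown no match of one overlapped a match of the other. The table held windows for 7 of the 10 genes, with none for CYR61, TEAD1 and TEAD4.
CTGF, chr6:131951373-131951622, minus strand: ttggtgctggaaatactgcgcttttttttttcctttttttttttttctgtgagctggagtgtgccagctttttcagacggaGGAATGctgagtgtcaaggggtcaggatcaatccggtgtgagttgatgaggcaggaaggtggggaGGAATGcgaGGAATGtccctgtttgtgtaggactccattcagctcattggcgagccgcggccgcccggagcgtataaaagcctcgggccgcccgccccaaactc
ANKRD1, chr10:90921088-90921337, minus strand: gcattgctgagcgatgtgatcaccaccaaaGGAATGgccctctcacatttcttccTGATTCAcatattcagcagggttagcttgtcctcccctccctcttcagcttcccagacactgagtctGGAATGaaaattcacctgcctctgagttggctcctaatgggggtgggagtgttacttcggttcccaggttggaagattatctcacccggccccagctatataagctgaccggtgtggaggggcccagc
YAP1, chr11:102110197-102110446, plus strand: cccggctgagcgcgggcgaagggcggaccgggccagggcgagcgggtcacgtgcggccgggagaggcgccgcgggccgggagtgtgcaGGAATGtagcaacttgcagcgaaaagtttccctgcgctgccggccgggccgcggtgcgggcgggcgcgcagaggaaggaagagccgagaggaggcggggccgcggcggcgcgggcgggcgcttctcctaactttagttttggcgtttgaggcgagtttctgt
F3, chr1:94541760-94542009, minus strand: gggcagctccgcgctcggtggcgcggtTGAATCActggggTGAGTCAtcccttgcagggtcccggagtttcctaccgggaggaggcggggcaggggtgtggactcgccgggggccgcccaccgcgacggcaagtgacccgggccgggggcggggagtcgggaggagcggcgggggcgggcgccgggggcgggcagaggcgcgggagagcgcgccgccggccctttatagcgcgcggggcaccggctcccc

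CTGF held 3 matches of GGAATG, starting 169, 104 and 95 bases before the gene start, and ANKRD1 held 2, starting 220 and 128 bases before it. YAP1 held 1 match, 162 bases before the start. The windows of AMOTL2, F3, LATS2 and AXL held none. F3 held 2 matches of TGANTCA, 223 and 210 bases before the start, and ANKRD1 held 1, at 195 bases. Over 35116 windows of the same length in the table, 11.9% held GGAATG at least once, 0.94% at least 2 times and 0.0826% at least 3 times. TGANTCA was held at least once by 6.57% and at least 2 times by 0.402%. A match describes the sequence of this window only, and distant enhancers were not searched.

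CTGF and CYR61 encode secreted matricellular proteins of 1 family and are among the most used YAP/TAZ targets, and they parted in the APC line. CTGF stood at 1.59, 2.49 and 2.34 CPM in APC, 19.2, 17.6 and 18.5 CPM in CONTROL and 29.4, 29.4 and 26.9 CPM in SW480. These are 29, 43 and 40 reads in the APC libraries, 357, 286 and 356 reads in CONTROL and 545, 549 and 500 reads in SW480. The 3 groups did not overlap, with APC far below and CONTROL between. CTGF fell 13.4-fold against SW480 (−3.74 ± 0.11 on the log2 scale, edgeR adjusted p = 3.76e-25) and 8.63-fold against CONTROL (−3.11 ± 0.12, edgeR adjusted p = 8.15e-22). It also fell 1.55-fold in CONTROL against SW480 (−0.63 ± 0.07, edgeR adjusted p = 8.52e-09).

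CYR61 stood at 151, 152 and 156 CPM in APC, 156, 139 and 141 CPM in CONTROL and 125, 130 and 130 CPM in SW480. The libraries of both derived lines lay above all 3 of SW480 and overlapped each other. APC exceeded SW480 1.19-fold (0.26 ± 0.04 on the log2 scale, edgeR adjusted p = 2.17e-06) and CONTROL exceeded SW480 1.13-fold (0.18 ± 0.04, edgeR adjusted p = 0.000628). Between APC and CONTROL it did not pass (0.08 ± 0.04, edgeR adjusted p = 0.105, 95% interval −0.01 to 0.16), although it did without CONTROL replicate 1 (0.14, edgeR adjusted p = 0.0088). Within a library, CYR61 exceeded CTGF in RPKM 97.1, 62.4 and 68.3 times in APC, 8.33, 8.07 and 7.77 times in CONTROL and 4.34, 4.52 and 4.94 times in SW480. The APC ratios rest on at most 43 CTGF reads in a library.

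ANKRD1 and AMOTL2 also fell in the APC line, by less than 2-fold. ANKRD1, which encodes an ankyrin repeat protein best known from heart muscle and is a strong YAP target, stood at 188, 195 and 191 CPM in APC, 270, 253 and 259 CPM in CONTROL and 328, 335 and 339 CPM in SW480. The groups did not overlap and ran in the same order as for CTGF. It fell 1.75-fold against SW480 (−0.80 ± 0.04 on the log2 scale, edgeR adjusted p = 9.21e-20), 1.36-fold against CONTROL (−0.45 ± 0.04, edgeR adjusted p = 9.38e-13) and 1.28-fold in CONTROL against SW480 (−0.36 ± 0.04, edgeR adjusted p = 4.68e-10). AMOTL2 encodes an angiomotin family protein that binds YAP at junctions and restrains it. It stood at 126, 126 and 134 CPM in APC, 219, 216 and 217 CPM in CONTROL and 199, 202 and 196 CPM in SW480. AMOTL2 fell 1.55-fold against SW480 (−0.63 ± 0.04, edgeR adjusted p = 1.74e-16) and 1.69-fold against CONTROL (−0.76 ± 0.04, edgeR adjusted p = 1.06e-18), and in CONTROL it was 1.09-fold higher than in SW480 (0.13 ± 0.04, edgeR adjusted p = 0.00404).

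F3, which encodes tissue factor, the cell-surface initiator of blood coagulation, moved opposite to CTGF and by a similar fold. F3 stood at 96.2, 104 and 100 CPM in APC, 10.5, 8.6 and 9.72 CPM in CONTROL and 7.97, 9 and 8.06 CPM in SW480. Every APC library was far above the other 6, whose groups overlapped. F3 rose 12-fold against SW480 (3.58 ± 0.07 on the log2 scale, edgeR adjusted p = 3.62e-31) and 10.4-fold against CONTROL (3.37 ± 0.07, edgeR adjusted p = 1.46e-30). Between CONTROL and SW480 it did not pass (0.21 ± 0.09, edgeR adjusted p = 0.0639), but it passed without CONTROL replicate 2 (0.28, edgeR adjusted p = 0.0233) and without SW480 replicate 2 (0.27, edgeR adjusted p = 0.0373). F3 also passed with counts summed over transcripts (edgeR adjusted p = 0.0355), but its 2 listed transcripts hold nearly equal counts. That sum appears to count most reads more than once, so this call adds no support.

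AXL and LATS2 differed little between the lines. AXL, a receptor tyrosine kinase gene, stood at 303, 310 and 303 CPM in APC, 279, 287 and 282 CPM in CONTROL and 246, 253 and 274 CPM in SW480. The groups did not overlap, but the steps between them were small. AXL in APC exceeded SW480 1.18-fold (0.24 ± 0.04, edgeR adjusted p = 1e-06) and exceeded CONTROL 1.08-fold (0.11 ± 0.04, edgeR adjusted p = 0.0122), a call lost without CONTROL replicate 1 (0.10, edgeR adjusted p = 0.0521). LATS2 encodes a kinase that phosphorylates YAP and is itself induced by it, a negative feedback. It stood at 49.5, 48.5 and 50.8 CPM in APC, 46.7, 46.3 and 48.8 CPM in CONTROL and 54.2, 49.9 and 46.3 CPM in SW480, and passed in no comparison with all 9 libraries. Without SW480 replicate 3 it passed between CONTROL and SW480 (−0.14, edgeR adjusted p = 0.0444). Its log2 fold change was −0.02 ± 0.05 against SW480 (edgeR adjusted p = 0.803, 95% interval −0.12 to 0.09) and 0.07 ± 0.05 against CONTROL (edgeR adjusted p = 0.267, 95% interval −0.04 to 0.17).

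**Figure D2:**
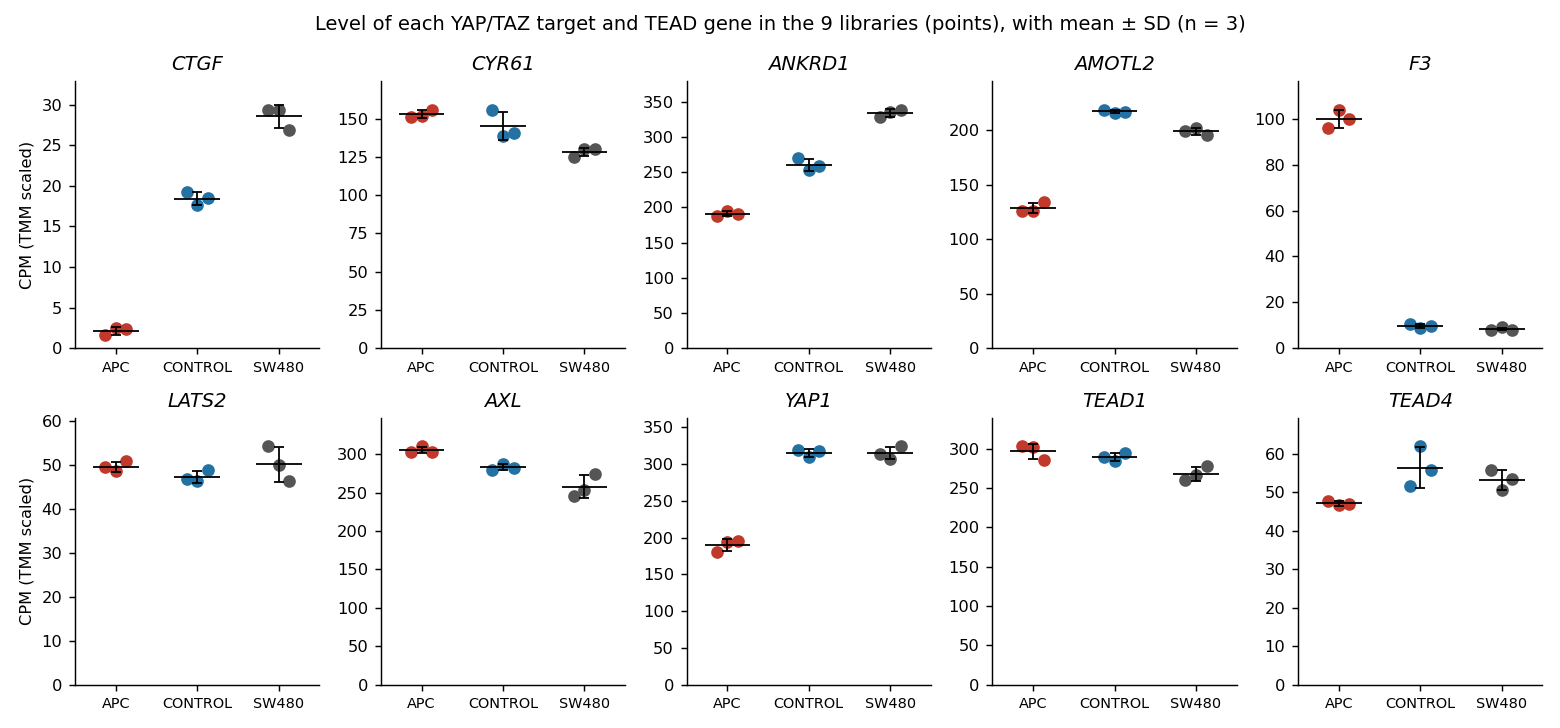
TMM-scaled CPM of the 10 genes in each library (points; red APC, blue CONTROL, grey SW480), with the mean as a line and the SD as a bar (n = 3). CTGF is lowest and F3 highest in the APC libraries, YAP1 and AMOTL2 are lower there than in both other groups, and LATS2 overlaps in all groups.

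All 10 genes passed the filter on low counts and were tested. Against SW480, 9 of the 10 passed (4 higher and 5 lower in APC), when 72.5% of the 14253 genes tested passed (35.6% higher, 36.9% lower). Against CONTROL, 7 passed (2 higher, 5 lower) when 70.2% of all genes did (34.8% higher, 35.4% lower). Between CONTROL and SW480, 6 passed (4 higher, 2 lower) when 50% of all genes did (25.3% higher, 24.7% lower). With only 10 genes, these counts lie near the shares of all genes tested. A change over 2-fold was measured for 2 of the 10, F3 higher and CTGF lower, in both APC comparisons, which share the APC libraries, and for 19.1% of all genes against SW480 (7.91% higher, 11.1% lower) and 18.3% against CONTROL (8.63% higher, 9.69% lower). No member changed over 2-fold between CONTROL and SW480, where 4.9% of all genes did (1.68% higher, 3.23% lower). Libraries of the groups did not overlap for 9, 7 and 6 of the 10 genes in the order above, and for 73.1%, 73.4% and 56.6% of all genes. The median log2 fold change of the 7 targets was −0.02 against SW480 and 0.07 against CONTROL, close to the −0.01 of all genes in both. Its median size without sign was 0.63 and 0.45, against 0.35 and 0.34 for all genes. Of the 7 targets, 3 were higher, 3 were lower and 1 did not pass against SW480.

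**Figure D3:**
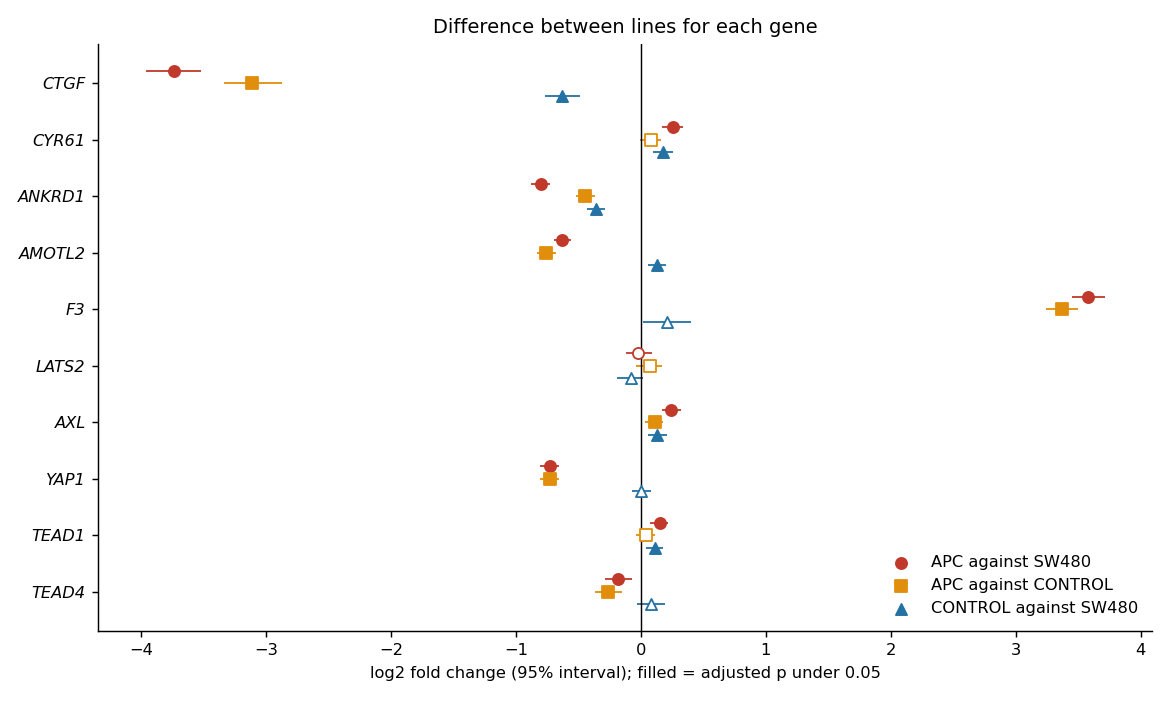
Log2 fold change of the 10 genes in the 3 comparisons, with 95% intervals; filled symbols passed the edgeR test at an adjusted p under 0.05. CTGF lies at −3.74 and −3.11 and F3 at 3.58 and 3.37 in the APC comparisons, and no other gene lies beyond 1 in size.

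The order of transcript levels per length differed between the groups below the first place. ANKRD1 was the most abundant of the 10 in every group, at 84.8 ± 2.28 RPKM in APC, 116 ± 4.28 RPKM in CONTROL and 151 ± 1.76 RPKM in SW480. CYR61 followed in APC at 58.4 ± 1.44 RPKM and overlapped AXL, at 56.3 ± 1.08 RPKM. In CONTROL the next 3, CYR61, AXL and YAP1, overlapped in sequence, from 55.8 ± 3.96 to 51.6 ± 1.07 RPKM. In SW480 YAP1 was in that place, at 52.3 ± 1.05 RPKM, above CYR61 and AXL, which overlapped. F3 was 4th of the 10 in APC at 36.5 ± 1.69 RPKM, and the lowest of the 10 in CONTROL at 3.54 ± 0.371 RPKM and in SW480 at 3.12 ± 0.225 RPKM. CTGF was lowest in APC at 0.800 ± 0.185 RPKM, and stood at 6.92 ± 0.332 RPKM in CONTROL and 10.9 ± 0.629 RPKM in SW480. TEAD1 and TEAD4 overlapped in CONTROL and in SW480, at 25.5 to 27.7 RPKM, but not in APC, where TEAD1 was at 27.6 ± 0.729 and TEAD4 at 22.9 ± 0.122 RPKM.

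The values of 1 transcript stand for each gene (NM_001901 for CTGF, NM_001554 for CYR61, NM_014391 for ANKRD1, NM_016201 for AMOTL2, NM_001993 for F3, NM_014572 for LATS2, NM_021913 for AXL, NM_001130145 for YAP1, NM_021961 for TEAD1 and NM_003213 for TEAD4). Only F3, AXL, YAP1 and TEAD4 of these genes had more than 1 transcript listed. The 4 YAP1 transcripts held 95.9% to 100% of the count of the one used in every library, and the 2 AXL transcripts 99.7% to 100%. The other F3 transcript, which is 2233 bases long against 2393 for the one used, held 91.3% to 92.6% of its count in APC, 91.4% to 93.6% in CONTROL and 90% to 93.2% in SW480. These ranges overlap between the 3 groups. The other TEAD4 transcripts differed more from the one used. NM_201441 held 91.6% to 93.2% of its count in APC, 92.4% to 95.6% in CONTROL and 92.6% to 93.7% in SW480. NM_201443 held 82.4% to 86.9% in APC, 85.5% to 86.3% in CONTROL and 85% to 88.1% in SW480. The ranges of NM_201443 also overlap between the 3 groups. With summed transcripts the log2 fold change of TEAD4 in APC was −0.18 against SW480 and −0.26 against CONTROL, as with the one used. Since the listed transcripts appear to share most reads, the sum could hardly differ and is no independent check. With any of the 3 transcripts the mean RPKM ratio of TEAD4 to TEAD1 was 0.732 to 0.832 in APC, 0.908 to 1.03 in CONTROL and 0.932 to 1.04 in SW480.

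The kinases and upstream regulators of the pathway changed in both directions. Of 21 such genes, all tested, 9 were higher and 7 lower in APC than in SW480, and 10 were higher and 8 lower than in CONTROL. Over all genes tested, 72.5% passed against SW480 (35.6% higher, 36.9% lower) and 70.2% against CONTROL (34.8% higher, 35.4% lower), so the counts of the list lie near the background. Its median log2 fold change was 0.03 and 0.08, against −0.01 for all genes in both. AMOTL1, a paralog of AMOTL2, had 2, 3 and 3 reads in the APC libraries, 111, 99 and 109 in CONTROL and 116, 103 and 136 in SW480. It fell 41.8-fold against SW480 (95% counting interval 21 to 97.5, edgeR adjusted p = 1.73e-18) and 38.7-fold against CONTROL (19.4 to 90.5, edgeR adjusted p = 6.17e-18), as ratios of summed reads whose intervals cover counting error only. AMOT, the founding member of that family, rose instead, at 51.7 ± 1.40 CPM in APC, 31.4 ± 2.58 CPM in CONTROL and 15.4 ± 0.605 CPM in SW480. AMOT in APC exceeded CONTROL 1.64-fold (log2 fold change 0.71 ± 0.06, edgeR adjusted p = 5.32e-13), and CONTROL was itself 2.05-fold above SW480 (1.03 ± 0.07, edgeR adjusted p = 2.28e-14). With AMOTL2 lower, the 3 angiomotin family genes thus differed in direction.

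SAV1, the scaffold of the MST kinases, stood at 112, 119 and 114 CPM in APC, 58.5, 54.7 and 54.4 CPM in CONTROL and 54.9, 47.2 and 48.0 CPM in SW480. The gene rose 2.30-fold against SW480 (edgeR adjusted p = 1.78e-20) and 2.06-fold against CONTROL (edgeR adjusted p = 7.68e-19). MAP4K4, a kinase that can phosphorylate LATS kinases in parallel to MST, rose 1.78-fold and 1.86-fold in these comparisons, to 228 ± 10.0 CPM in APC, against 122 ± 1.59 CPM in CONTROL and 128 ± 4.29 CPM in SW480. WTIP and AJUBA encode LIM proteins that can hold LATS kinases inactive at junctions, and both fell. WTIP stood at 3.11 ± 0.262 CPM in APC, 17.1 ± 0.281 CPM in CONTROL and 19.0 ± 1.95 CPM in SW480 (log2 fold change −2.61 ± 0.11 and −2.45 ± 0.11 in APC against SW480 and CONTROL). AJUBA stood at 47.3 ± 1.44 CPM in APC, 68.7 ± 1.89 CPM in CONTROL and 69.9 ± 1.01 CPM in SW480 (−0.56 ± 0.05 and −0.54 ± 0.05). LIMD1, a related LIM gene of the list named after its values were seen, rose (0.41 ± 0.06 and 0.76 ± 0.06). LATS1, the paralog of LATS2, passed in neither APC comparison, at 31.7 ± 1.85 CPM in APC, 29.9 ± 0.0774 CPM in CONTROL and 33.3 ± 1.94 CPM in SW480 (edgeR adjusted p = 0.28 and 0.238), and was also named after its values were seen.

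Of 7 coactivator, TEAD and VGLL cofactor genes outside the 10, which include WWTR1, TEAD2 and TEAD3 described above, 5 were tested. In APC 3 were higher and 2 lower than in SW480, and 2 higher and 1 lower than in CONTROL. Over all genes tested, 72.5% and 70.2% passed. The higher genes include VGLL2, which passed the filter on low counts only through the APC libraries. VGLL2, a TEAD cofactor gene known from muscle, had 17, 15 and 15 reads in the APC libraries and none in the other 6. It was at least 5.54-fold higher in APC than in SW480 and at least 5.34-fold higher than in CONTROL, against a floor of 3 counts per library. VGLL4, which competes with YAP for TEAD factors, was at 16.9 ± 0.851 CPM in APC, 17.9 ± 0.456 CPM in CONTROL and 33.1 ± 1.55 CPM in SW480. Its fall in APC against SW480 (−0.97 ± 0.07) was matched in CONTROL against SW480 (−0.88 ± 0.07), and APC did not pass against CONTROL (edgeR adjusted p = 0.288). VGLL4 was named after its values were seen.

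The further genes of a published YAP/TAZ target signature lay on both sides, as all genes did. Of 15, 14 were tested, with 6 higher and 6 lower in APC than in SW480 and 5 higher and 7 lower than in CONTROL, when 72.5% and 70.2% of all genes passed, about evenly in both directions. Their median log2 fold changes were −0.15 and −0.13, against −0.01 for all genes. NT5E, the ecto-5′-nucleotidase gene (CD73), rose to 243 ± 9.91 CPM in APC, against 88.1 ± 1.61 CPM in CONTROL and 49.1 ± 4.06 CPM in SW480 (log2 fold change 2.30 ± 0.05 against SW480 and 1.46 ± 0.04 against CONTROL). NT5E in CONTROL was itself above SW480 (0.84 ± 0.05, edgeR adjusted p = 3.06e-15). MYOF, a membrane repair gene, rose to 402 ± 3.70 CPM in APC, against 189 ± 2.28 CPM in CONTROL and 174 ± 6.87 CPM in SW480. NUAK2, an AMPK-related kinase gene, rose to 34 ± 0.866 CPM in APC, against 15.4 ± 1.30 CPM in CONTROL and 13.3 ± 0.819 CPM in SW480. FOXF2, a forkhead transcription factor gene, fell to 8.09 ± 0.243 CPM in APC, against 19.0 ± 0.477 CPM in CONTROL and 20 ± 1.2 CPM in SW480. CRIM1, which encodes a membrane protein that binds BMPs, fell to 170 ± 5.23 CPM in APC, against 281 ± 3.10 CPM in CONTROL and 243 ± 3.59 CPM in SW480. ARHGEF17 fell to 26.5 ± 1.78 CPM in APC, against 47.3 ± 1.74 CPM in CONTROL and 49.9 ± 3.12 CPM in SW480. In each of these 6 genes the APC libraries overlapped neither other group, and all 6 passed in both APC comparisons (edgeR adjusted p between 5.64e-29 and 3.61e-14).

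**Figure D4:**
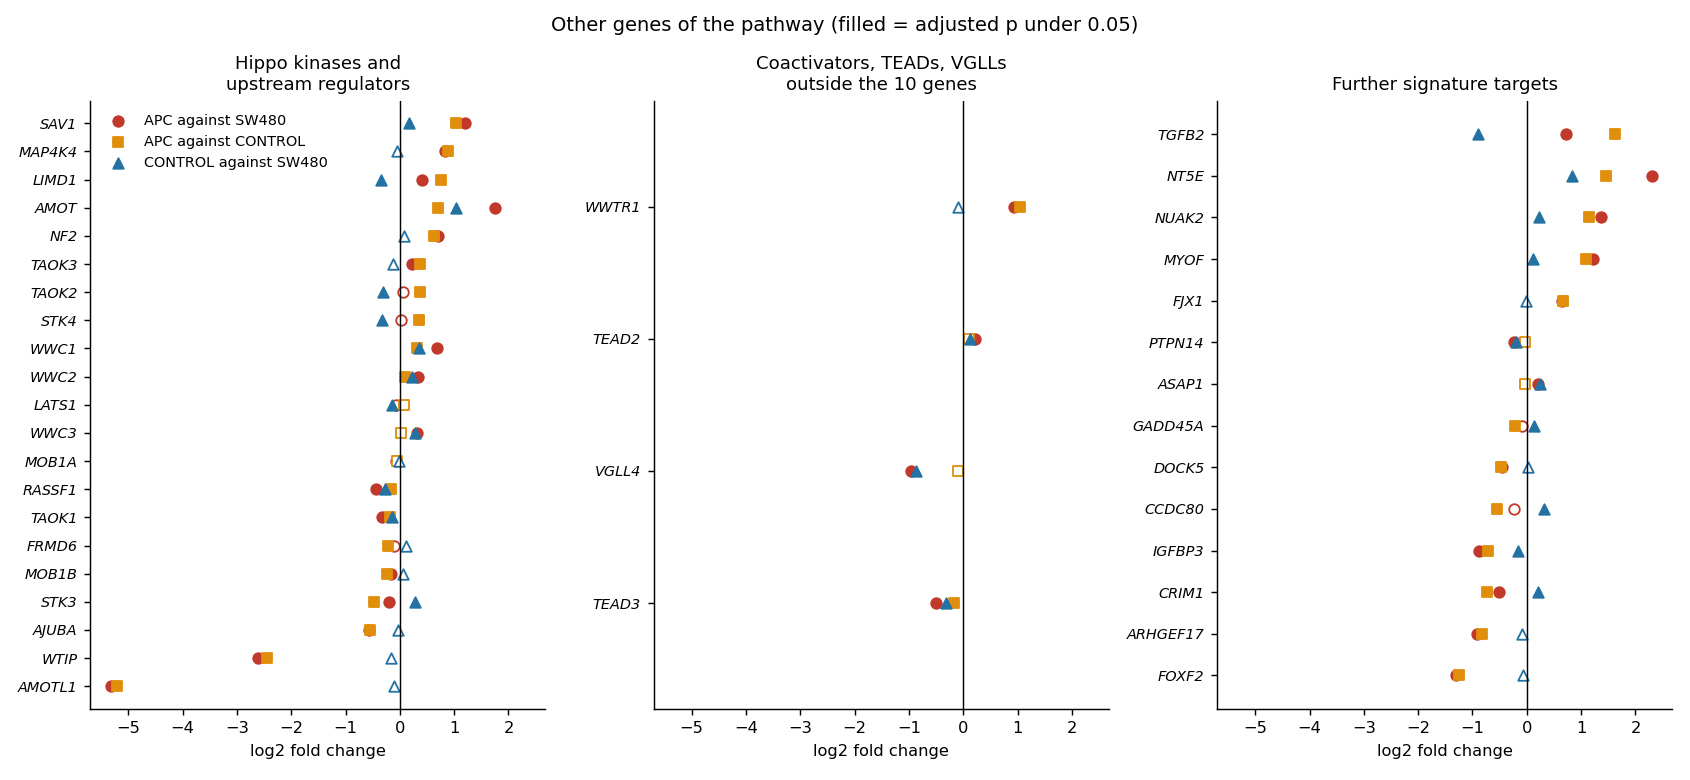
Log2 fold changes of the other pathway genes in the 3 comparisons (circles APC against SW480, squares APC against CONTROL, triangles CONTROL against SW480; filled symbols passed at an adjusted p under 0.05). Each list has genes on both sides of 0; AMOTL1 and WTIP lie furthest to the left, and VGLL2, which had no reads outside the APC libraries, is not drawn.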

How the data were processed

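Each deposited count is a whole number of reads per RefSeq transcript, without normalisation, per the file headers. RPKM, also deposited, equalled the count divided by length and by a library constant in 100% of transcripts (relative tolerance 0.0001). Per the submitters' processing notes, Trimmomatic, TopHat and GATK were used with build hg19. Neither counting tool nor strand setting nor annotation release is given in the sources used here, so antisense reads may be included. Of 65 names altered to dates, 64 were repaired. The test was edgeR 4.0.16 under R 4.3.3 (TMM, filterByExpr, robust quasi-likelihood, 9 libraries in 1 fit, 14253 genes, Benjamini-Hochberg adjustment, threshold 0.05). SE is the size of the log2 fold change divided by the square root of F. The test was also run on simulated counts with few changed genes and 1 spread common to all genes. That setting is simpler than these data, so it does not measure the error rate here. Replicates differed by more than sampling noise (chi-square per degree of freedom 1.36 to 5.63) and were counted separately. Promoter sequences and gene order came from RefSeq (GRCh38.p14), whose build differs from that of the counts, and 19953 of 20876 genes matched it by accession. Named genes outside the 10 were APC, WWTR1, TEAD2, TEAD3 and up to 3 per direction and list by adjusted p, unless stated. The members and lists were chosen with earlier results of these data known. Alternatives were DESeq2 1.42.0, RLE or total-count scaling, no filter, summed transcripts, limma 3.58.1 on log2(RPKM + 1) or log2(RPKM + 0.1), fits of 6 libraries, a replicate block and leaving out each library. Where a gene of the 10 had several listed transcripts, their counts were similar. Summed transcripts thus appear to count shared reads more than once, which can make calls too easy.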

Additional observations from a re-analysis of the deposited data

How the results depend on the processing

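Over 18 alternatives the number of the 10 genes called was 9 against SW480 and 7 against CONTROL in every one, and 5 to 7 for CONTROL against SW480. Of 540 recomputed log2 fold changes of the 10 genes, 528 kept their direction or stayed uncalled on the same side of the threshold, 6 lost a call, 6 gained one and none reversed a call. TEAD1 between CONTROL and SW480 accounted for 5 of the losses, with adjusted p of 0.0669 to 0.0887 under total-count scaling, both RPKM settings and without CONTROL replicate 3 or SW480 replicate 1. On the log2(RPKM + 1) scale CTGF fell by 2.73 against SW480 and by 2.14 against CONTROL, since the pseudocount is above its level in APC, and AMOTL1 fell by 0.68 and by 0.64. Labels give the groups the same replicate numbers, but same-numbered libraries did not deviate together (correlations of −0.089 to 0.159). The replicate block, tried for that reason, gave 10295, 9991 and 7109 genes called in the 3 comparisons, against 10333, 10004 and 7130 without it, and changed no call of the 10 genes. Of the 14 signature targets tested, 6 were called between CONTROL and SW480 without CONTROL replicate 3, against 10 with it. Over all genes the calls in that comparison also fell, from 7130 (50% of those tested) to 6185. The low CTGF and AMOTL1 counts in APC limit the precision of their folds.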

Other observations

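The genes nearest to each of the 10 on its chromosome, 10 tested genes on each side in RefSeq order, were read for the same comparisons. Around CTGF on chromosome 6 APC differed by a median of 0.32 from SW480 and of 0.39 from CONTROL on the log2 scale, where CTGF itself fell by 3.74 and by 3.11. Of these 20 neighbours 13 were called higher in each comparison, where 35.6% and 34.8% of all genes were, and 4 and 1 were called lower. Around F3 on chromosome 1 the median was 0.10 and 0.17, around YAP1 on chromosome 11 it was 0.14 and 0.15, and around ANKRD1 on chromosome 10 it was 0.14 and 0.13. LATS2 on chromosome 13 lay among genes that were higher in APC, with medians of 0.50 and 0.67 and 16 of 20 called higher in each comparison, where 35.6% and 34.8% of all genes were, while LATS2 itself passed in neither. In CONTROL against SW480 none of these 20 genes was called higher and 15 were called lower, with a median of −0.24, where 24.7% of all genes were lower. TEAD4 on chromosome 12 had medians of −0.19 and −0.27 around it, and its own log2 fold changes were −0.18 and −0.26. Of its 20 neighbours 12 and 14 were called lower, where 36.9% and 35.4% of all genes were. Medians were 0.17 and 0.16 around CYR61, −0.09 and −0.12 around AMOTL2, 0.08 and 0.13 around AXL and −0.03 and −0.08 around TEAD1. In CONTROL against SW480, 13 of the 20 genes around TEAD1 were called higher, where 25.3% of all genes were. Their median was 0.21, and TEAD1 itself stood at 0.11.

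Profiles over the 9 libraries, each centred on its SW480 mean, were compared by Euclidean distance on the log2 CPM scale among 9841 other genes with a mean of at least 10 CPM. The nearest genes were picked for their small distance, so the median distance is given for scale only. Nearest to YAP1 were S100A11, a calcium-binding protein gene, at a distance of 0.106, SLC38A1, an amino acid transporter gene, at 0.122, and MED13L, a Mediator subunit gene, at 0.144, where the median gene stood at 1.43. S100A11 averaged 352 ± 14.4 CPM in APC, 596 ± 5.80 CPM in CONTROL and 598 ± 20.7 CPM in SW480. Nearest to TEAD1, the most counted of the 10, were SERF2, LARP1 and RPS10-NUDT3, at 0.0726 to 0.0873, where the median gene stood at 0.701. RPS10-NUDT3 is a read-through transcript that shares reads with its component genes, so its level is uncertain.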
